A study of Mus musculus with 8 samples.

Results

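Described here are 10 genes whose proteins coat, build or break down lipid droplets: the CIDE genes Cidea, Cideb and Cidec, the perilipins Plin2 and Plin3, the lipase Pnpla2, and the acyltransferases Dgat1, Dgat2, Mogat1 and Mogat2. They were chosen by name, as the rows of the deposited count table with these symbols, and each matched 1 of the 25902 entries with a symbol. Earlier results of these data were known when they and the gene lists below were chosen. Counts of calls among them are thus not independent of these data. All 10 members were among the 13495 genes tested, that is those above 0.5 CPM (counts scaled to the size of the library) in 6 or more of the 8 libraries. RNA was sequenced from EpCAM-positive cells, that is cells sorted for an epithelial surface protein, of antral gastric tumors from 4 Yap1WT and 4 Yap1KO mice, 1 library per mouse. All mice carried gp130FF, a mutation of the cytokine receptor gp130 that leads to gastric tumors, and all were labelled as 18 weeks old and 3 days after tamoxifen. In the Yap1KO mice, exon 3 of Yap1 was deleted by a tamoxifen-activated Cre driven by the Tff1 promoter, so cells without that promoter's activity were not targeted. The promoter is active in mucous cells of the gastric surface. From Tff1 expression in the tumors, the study infers that further epithelial cells were targeted, among them parietal, chief and mucous neck cells. The study's text differs from the labels in places. Its results section gives 20 weeks, while its methods give 18. A figure legend has tamoxifen given for 3 days and tumors taken when treatment ended. The study also describes the Yap1WT mice as floxed littermates given vehicle. If only the Yap1KO mice received tamoxifen, its effects and those of Yap1 loss cannot be told apart here.

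Lipid droplets are stores of triacylglycerol and sterol esters enclosed by a single layer of phospholipid. Acyltransferases of the MOGAT family make diacylglycerol from monoacylglycerol, DGAT enzymes add the last fatty acid, perilipins coat the droplet, and lipases such as the product of Pnpla2 release the fatty acids again. CIDE proteins sit where droplets touch and let lipid pass from one to the other, and they were named for their resemblance to a DNA fragmentation factor that acts in cell death.

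Yap1 itself checks the labels. It was read at 77.1, 64.2, 78.0 and 72.5 CPM in Yap1WT and at 21.3, 27.6, 29.7 and 24.2 CPM in Yap1KO, and the groups did not overlap (log2 fold change -1.51, SE 0.13, adjusted p = 0.000208, edgeR). Libraries held 27607755 to 77483047 counts in Yap1WT and 18229945 to 74278015 in Yap1KO. Yap1KO replicate 4, the shallowest, stood apart on the first principal component, at 66.8 against -17.9 to 1.34 for the other 7, and without it 1 member was again called higher and 1 lower. Replicates 1 and 4 of Yap1WT and replicate 4 of Yap1KO had more reads of Xist than of Ddx3y, so the sexes were mixed unevenly between the groups. The epithelial list of 5 markers summed to between 9175 and 11152 CPM per Yap1WT library and between 8418 and 10759 CPM per Yap1KO library, with 2 of 5 above 0 and a median log2 fold change of -0.02. Within it Epcam rose (log2 fold change 0.76, adjusted p = 0.00188, edgeR), while Krt8 and Krt19, the most abundant, had values of -0.20 and -0.42 (adjusted p = 0.452 and 0.0999), the latter without overlap of the groups. Markers of other cell types moved as well: all 6 endothelial markers lay above 0, with a median log2 fold change of 1.41, and had sums from 138 to 532 CPM in the Yap1WT libraries and from 477 to 968 CPM in the Yap1KO libraries, with Tie1 called higher (log2 fold change 1.42, adjusted p = 0.0355). Plvap and Pecam1, the most abundant endothelial markers, had log2 fold changes of 1.39 and 1.22 (adjusted p = 0.0649 and 0.0635, edgeR). Of the 6 fibroblast markers, 5 lay above 0, with a median of 0.998 and none called. Their sums were 81.5 to 675 and 306 to 1038 CPM. Col3a1 and Col1a1, the most abundant of them, had values of 1.05 and 1.21 (adjusted p = 0.374 and 0.332, edgeR). Of 6 markers of gastric mucous cells, 4 lay below 0 and the median log2 fold change was -0.58. By an unadjusted p of less than 0.05 (edgeR), 3 were lower and 2 higher. Gkn1 had a log2 fold change of -0.62 (adjusted p = 0.172, edgeR) and Tff2 one of 0.50 (adjusted p = 0.192). Tff1, Gkn2 and Muc5ac had values of -0.53, -0.95 and -0.67 (adjusted p = 0.143, 0.109 and 0.682, edgeR). Gkn3 was called higher (0.68, adjusted p = 0.0341, edgeR). The list sums were 72761 to 119159 and 78348 to 105579 CPM. Of 7 leukocyte markers, 3 were tested, with a median of -1.01 and list sums of 9.63 to 15.9 and 8.50 to 13.5 CPM. Ptprc, the pan-leukocyte marker, had a log2 fold change of -1.17 without overlap of the groups (adjusted p = 0.151, edgeR), Itgam one of -1.01 (adjusted p = 0.618), and Cd68 was called higher (1.06, adjusted p = 0.0468). Their part in the results below was not tested. In RNA of sorted cells in bulk, fewer cells of a type and less RNA per cell cannot be told apart.

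In Yap1KO, Cidea rose and Mogat1 fell, and the other 8 genes did not pass the threshold of an adjusted p of 0.05 (edgeR's quasi-likelihood test, adjusted over all 13495 genes). Thus 1 of 10 members was called higher and 1 of 10 lower, beside 3.53% of all genes called higher, 2.34% called lower and 5.87% called in either direction. The values of the groups did not overlap for 1 member that was higher and 2 that were lower, beside 7.19% and 6.01% of all genes, or 13.2% in either direction. Without Yap1KO replicate 4, an alternative chosen after seeing the data, 2 were higher (Cidea and Plin2) and 2 lower, beside 8.70% and 7.64%. At an unadjusted p under 0.05, 1 member was higher and 3 were lower, beside 11.5% and 8.97% of all genes. Of the 10 members, 4 had a fold change above 0, and the median log2 fold change was -0.17, against -0.01 over all genes. The study had picked Cidea as a death-related gene on these same samples, so its rise here is not independent evidence. In separate material, tumor organoids edited to lower Yap1, the study also reported higher Cidea, measured by qRT-PCR.

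**Figure D1:**
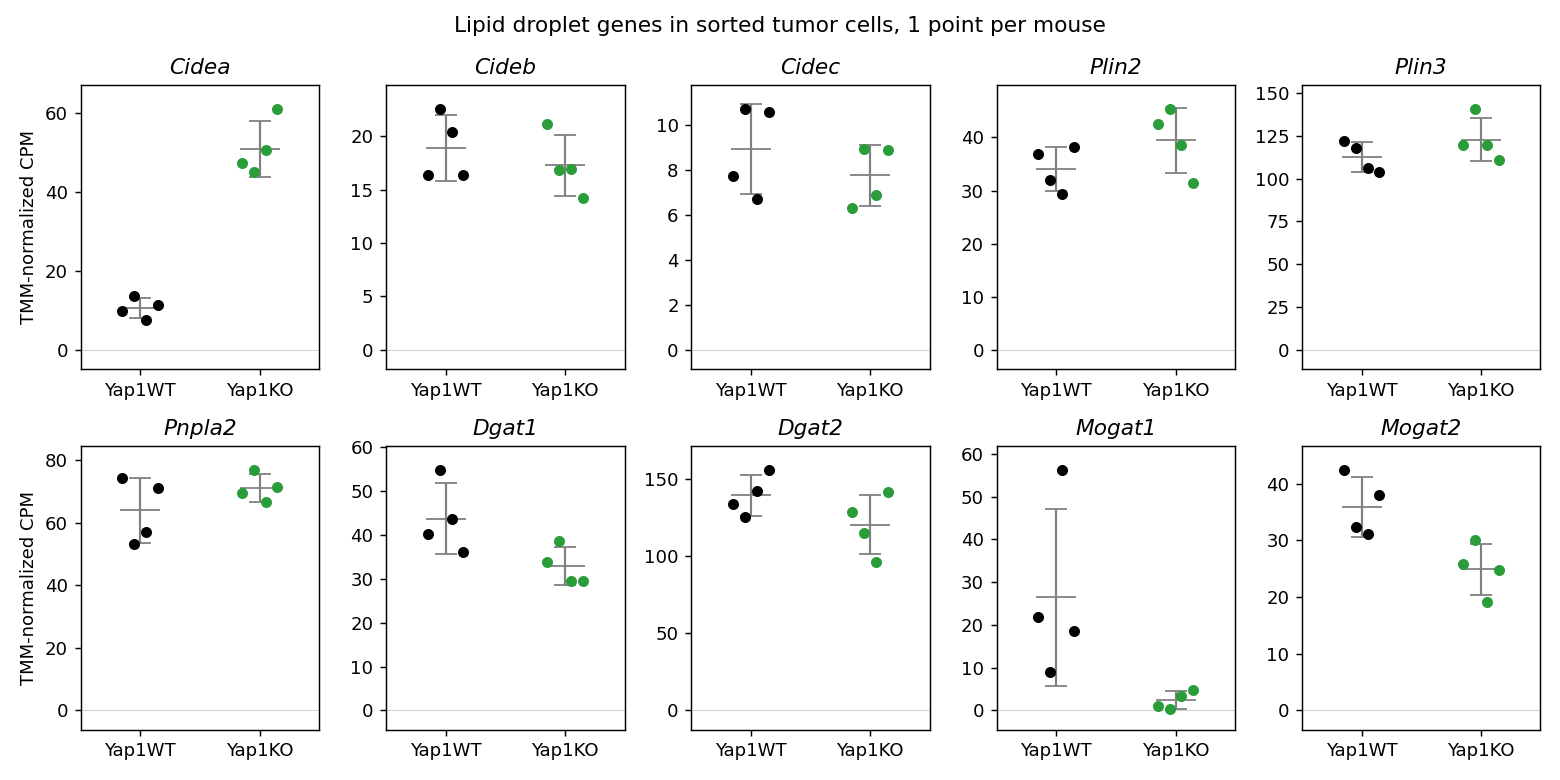
TMM-normalized counts (CPM, vertical axis, linear) of each of the 10 genes in Yap1WT (black) and Yap1KO (green), with 1 point per mouse and grey bars at the mean ± SD of 4 mice. The groups are apart for Cidea, Mogat1 and Mogat2, and they overlap for the other 7.

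Promoters from RefSeq (GRCm38.p6) were matched for 6 of the 10 genes, and Cidea, Dgat1, Dgat2 and Mogat2 were not matched. The 2 stretches shown were chosen after the motif matches were seen, each holding the 250 bases before a start: that of Mogat1, the one called gene with an entry, and that of Cidec, the only stretch of the 6 genes that held the 6 letters bound by TEAD factors, the DNA-binding partners of YAP1. Capitals mark the match, and the Mogat1 stretch has none.
Mogat1, chr1:78510810-78511059, plus strand: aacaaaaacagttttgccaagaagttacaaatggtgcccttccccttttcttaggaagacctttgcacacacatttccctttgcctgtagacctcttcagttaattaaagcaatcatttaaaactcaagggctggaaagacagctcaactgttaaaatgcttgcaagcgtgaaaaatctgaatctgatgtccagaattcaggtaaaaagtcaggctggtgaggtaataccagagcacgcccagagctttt
Cidec, chr6:113435761-113436010, minus strand: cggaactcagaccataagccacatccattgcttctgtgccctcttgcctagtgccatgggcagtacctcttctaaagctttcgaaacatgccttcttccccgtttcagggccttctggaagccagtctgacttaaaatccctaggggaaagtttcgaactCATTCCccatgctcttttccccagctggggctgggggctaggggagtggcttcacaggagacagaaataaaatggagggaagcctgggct
On both strands, 5 motifs were searched: GGAATG of TEAD factors, AGGTCA of nuclear receptors, CACGTG of E-box factors, TATAAA of the TATA box and TGACGTCA of CREB-like factors. They occurred in 12.6%, 14.0%, 6.02%, 12.4% and 1.55% of the 32851 promoters of the same length. The match in Cidec began 90 bases before the start, as the reverse complement CATTCC, and the other Cidec start had no match. Plin2 held TGACCT, the reverse complement of the nuclear receptor letters, 218 bases before its start, and Cideb held TATAAA 172 bases before its start. Mogat1, Plin3 and Pnpla2 held none of the 5. The GC content was 41.2% for Mogat1 and 52.8% for the Cidec stretch shown, against a median of 52.4% over all promoters. A match in letters does not show that a factor binds.

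Cidea (gene ID 12683, chr18:67343564-67367794) encodes a CIDE protein known from brown fat and from cells that fill with lipid. It was read at 9.75, 13.7, 7.60 and 11.3 CPM in Yap1WT, from 756, 588, 525 and 315 reads. In Yap1KO it was read at 47.2, 45.0, 50.6 and 61.0 CPM, from 2554, 1426, 3917 and 1118 reads. The lowest Yap1KO library thus lay above the highest Yap1WT library, and the mice of a group stayed within a 1.80-fold range in Yap1WT and a 1.36-fold range in Yap1KO. The Yap1WT mean of 10.6 ± 2.57 CPM (SD, n = 4) compared with 51.0 ± 7.09 CPM (SD, n = 4) in Yap1KO, a 4.82-fold rise (log2 fold change 2.27, SE 0.19, 95% interval 1.86 to 2.69, adjusted p = 0.000208, edgeR). Among the 13495 genes it had the 74th highest fold change. On the deposited log2 RPKM values (reads per length of gene and size of library) the difference was 2.25, and the two-sided exact permutation p was 0.0286, the smallest that 4 against 4 mice can give. The gene was called under all 19 alternative settings, at log2 fold changes of 2.14 to 2.42 and adjusted p up to 0.00122. The bounds of a lncRNA gene, B430212C06Rik, overlap those of Cidea by 540 bases; it held 7 to 71 reads per library and did not pass the test (log2 fold change 0.28, adjusted p = 0.813, edgeR).

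Of 11 fat-cell markers, which include Cidec, 6 were too low to be tested. Among these, Adipoq, the adipocyte hormone, reached at most 1.54 CPM in Yap1WT and 0.775 CPM in Yap1KO, and Plin1, the adipocyte perilipin, 1.11 and 0.633 CPM. Ucp1, the brown-fat uncoupling protein, reached 0.0516 CPM in Yap1WT and was at 0 in all Yap1KO libraries. The 5 tested markers had a median log2 fold change of 0.61, with 3 above 0 and none called. Fabp4, which endothelial cells also express, was the most abundant, at 11.3 to 54.2 and 13.0 to 62.4 CPM (log2 fold change 0.67, adjusted p = 0.555, edgeR). Lipe, the hormone-sensitive lipase, had a log2 fold change of 0.61 without overlap of the groups (adjusted p = 0.0502, edgeR), Cox7a1 one of 1.11 (adjusted p = 0.311) and Cfd, or adipsin, one of -0.64 (adjusted p = 0.833), at up to 11.5 CPM in Yap1WT and 4.74 CPM in Yap1KO. The list had sums from 31.0 to 90.3 CPM in the Yap1WT libraries and from 36.3 to 95.3 CPM in the Yap1KO libraries, and its part in the rise of Cidea was not tested. Of the 9 sebaceous and squamous markers, Mc5r and Awat1 had no read in any library, and Scd3 was called higher (log2 fold change 1.90, adjusted p = 0.0185, edgeR) with 0.645 to 1.23 CPM in Yap1WT libraries against 2.32 to 4.70 CPM. Krt5 and Krt13, the most abundant of that list, had log2 fold changes of -0.15 and 0.42 (adjusted p = 0.946 and 0.529, edgeR).

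Neither of the other CIDE genes passed the test. Cideb (chr14:55754052-55758424), the CIDE gene of liver and intestine, was read at 16.4, 22.6, 20.4 and 16.4 CPM in Yap1WT and at 21.1, 16.8, 16.9 and 14.2 CPM in Yap1KO. The groups overlapped, and the log2 fold change was -0.13, with a 95% interval from -0.50 to 0.25 (adjusted p = 0.735, edgeR). Its gene bounds overlap those of Nop9 by 1583 bases and those of Ltb4r2 by 503 bases, and since the library kit does not mark strand, reads there cannot be assigned to one gene. Cidec (chr6:113424634-113435760), which drives the growth of the single large droplet of white fat cells, was read at 7.75, 10.7, 6.73 and 10.6 CPM in Yap1WT and at 6.32, 8.93, 6.92 and 8.90 CPM in Yap1KO. Its groups overlapped too, with a log2 fold change of -0.21 and an interval from -0.71 to 0.30 (adjusted p = 0.671, edgeR). Neither interval reaches a rise of 1.5-fold, whereas that of Cidea starts well above it.

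The make-up of the CIDE transcripts differed between the groups. Per gene length (linear RPKM taken from the deposited log2 values), Cidea made up 24.7% to 32.6% of the summed CIDE level in the Yap1WT libraries and 64.7% to 75.0% in the Yap1KO libraries. Cideb held the largest share in each Yap1WT library, at 46.4% to 60.2%, and 17.5% to 29.4% in Yap1KO. Cidec made up 15.1% to 21.0% and 5.92% to 8.38%. The summed level itself was 4.76 to 5.21 log2 RPKM in Yap1WT and 5.89 to 6.13 in Yap1KO.

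**Figure D2:**
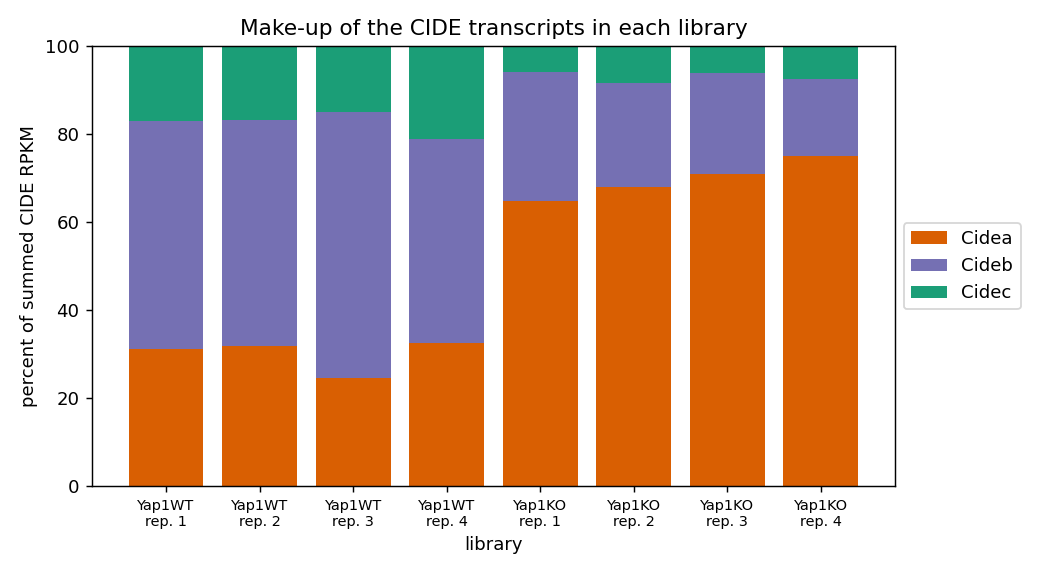
Share of Cidea, Cideb and Cidec (percent of their summed RPKM, vertical axis from 0 to 100) in each of the 8 libraries, 1 stacked bar per mouse. Cidea (orange) takes at most 32.6% in Yap1WT and at least 64.7% in Yap1KO.

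Mogat1 (gene ID 68393, chr1:78511060-78606964) encodes a monoacylglycerol acyltransferase. It was read at 21.8, 8.90, 56.3 and 18.7 CPM in Yap1WT, from 1694, 382, 3889 and 521 reads. In Yap1KO it was read at 1.05, 0.379, 3.40 and 4.75 CPM, from 57, 12, 263 and 87 reads. The groups did not overlap, but mice within a group differed widely, by 6.33-fold in Yap1WT, where replicate 3 was highest, and by 12.5-fold in Yap1KO, where replicate 2 was lowest. The Yap1WT mean of 26.4 ± 20.7 CPM (SD, n = 4) compared with 2.39 ± 2.03 CPM (SD, n = 4) in Yap1KO, an 11.3-fold fall (log2 fold change -3.50, SE 0.76, 95% interval -5.18 to -1.82, adjusted p = 0.0249, edgeR). It was the 4th largest fall among the 13495 genes. On the deposited log2 RPKM values the difference was -4.17 (two-sided exact permutation p = 0.0286, the smallest possible). The call was made under 16 of the 19 alternatives and lost under 3: without Yap1WT replicate 3 (log2 fold change -2.80, adjusted p = 0.0735), without Yap1KO replicate 1 (-3.24, adjusted p = 0.0721) and with limma-voom (-4.16, adjusted p = 0.0754). The mouse numbers in the labels fall into a lower and a higher series, each with 2 mice per group. In the lower series the Yap1WT values 21.8 and 8.90 CPM lay above the Yap1KO values 1.05 and 0.379 CPM. In the higher series 56.3 and 18.7 CPM lay above 3.40 and 4.75 CPM. Since the groups did not overlap, any split of the mice must show this order, so it adds no support. The lncRNA gene Gm39665, which has no row in the count table, overlaps the bounds of Mogat1 by 28343 bases, as Gm52871 does for Cidec (1256 bases) and the pseudogene Gm12551 for Plin2 (5312 bases), and reads from them were not told apart by strand.

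Mogat2 (chr7:99219084-99238611), the intestinal member of the pair, was read at 42.4, 32.3, 31.1 and 38.0 CPM in Yap1WT and at 25.7, 30.0, 19.1 and 24.7 CPM in Yap1KO. Each Yap1KO library lay below each Yap1WT library, yet the log2 fold change of -0.53 (SE 0.16, interval -0.88 to -0.18) missed the threshold at an adjusted p of 0.0875 with edgeR. DESeq2 called it (adjusted p = 0.0328), and over the 19 alternatives the adjusted p ranged from 0.0328 to 0.197. The list of 9 enterocyte markers, which includes Mogat2, had sums of 606 to 757 and 612 to 983 CPM, and none of its 7 tested genes was called, with 4 above 0 and a median log2 fold change of 0.26. Vil1 and Alpi, the most abundant over all 8 libraries, had log2 fold changes of 0.26 and 0.997 (adjusted p = 0.218 and 0.450, edgeR), and Apob and Fabp2 had values of -0.29 and -0.96 (adjusted p = 0.657 and 0.220). On the deposited values the exact permutation p of Mogat2 was 0.0286, again the smallest possible. Of the summed MOGAT level per gene length, Mogat1 made up 28.6% to 72.4% in the Yap1WT libraries and 0.658% to 21.7% in Yap1KO, while Mogat2 made up 78.3% to 99.3% in the 4 Yap1KO libraries. The sum was 4.68 to 6.0004 log2 RPKM in Yap1WT and 3.73 to 4.18 in Yap1KO.

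Dgat1 (chr15:76502012-76512021), which completes triacylglycerol in the endoplasmic reticulum, was read at 40.3, 54.8, 43.6 and 36.2 CPM in Yap1WT and at 33.7, 38.5, 29.4 and 29.5 CPM in Yap1KO. The highest Yap1KO library passed the lowest Yap1WT library, and the log2 fold change of -0.41 (interval -0.74 to -0.09) had an unadjusted p of 0.0185 and an adjusted p of 0.144 (edgeR). Dgat2 (chr7:99153663-99182713), an unrelated enzyme with the same activity, was read at 133.6, 125.1, 141.9 and 155.7 CPM in Yap1WT and at 128.3, 115.0, 96.2 and 141.2 CPM in Yap1KO. These overlapped, with a log2 fold change of -0.21 and an interval from -0.50 to 0.07 (adjusted p = 0.406, edgeR). Dgat2 and Mogat2, which belong to one gene family, both lie on chromosome 7, with 36370 bases between them. All 4 acyltransferases had a log2 fold change below 0, where the median over all genes was -0.01. Of the 4, 1 was called lower, beside 2.34% of all genes, and the interval of Dgat2 included 0.

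**Figure D3:**
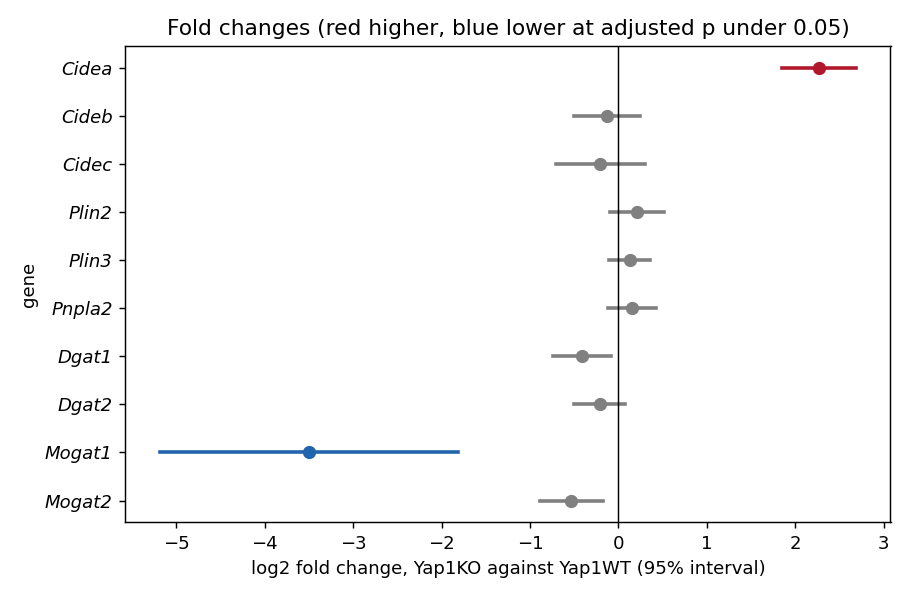
Log2 fold change of Yap1KO against Yap1WT (horizontal axis) for each of the 10 genes, with lines for the 95% interval from edgeR, red where called higher and blue where called lower. Cidea lies at 2.27 and Mogat1 at -3.50, and the other 8 lie between -0.53 and 0.21.

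Neither perilipin nor the lipase passed the test. Plin2, the coat protein that most cells make when they load lipid, was read at 36.8, 31.9, 29.4 and 38.2 CPM in Yap1WT and at 42.5, 45.4, 38.6 and 31.3 CPM in Yap1KO. The groups overlapped through Yap1KO replicate 4, the lowest of its group, and the log2 fold change was 0.21, with an interval from -0.10 to 0.52 (adjusted p = 0.444, edgeR). Plin3, a perilipin also found free in the cytosol, was read at 121.8, 117.9, 106.0 and 104.1 CPM in Yap1WT and at 119.7, 140.7, 119.8 and 111.2 CPM in Yap1KO. These overlapped as well (log2 fold change 0.13, interval -0.10 to 0.36, adjusted p = 0.539, edgeR). Pnpla2, which takes the first fatty acid from triacylglycerol, was read at 74.1, 53.1, 57.1 and 71.1 CPM in Yap1WT and at 69.3, 76.9, 66.5 and 71.2 CPM in Yap1KO. Its log2 fold change was 0.15, with an interval from -0.12 to 0.42 (adjusted p = 0.539, edgeR), and the groups overlapped. The intervals of these 3 genes leave room for a rise of up to 0.52 and a fall of up to 0.12 on the log2 scale.

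The order of the levels per gene length, on the deposited log2 RPKM scale, put Cidea and Mogat1 at different places in the groups. In Yap1WT, Dgat2 (5.95 ± 0.12, SD, n = 4) and Plin3 (5.71 ± 0.15) led, and their ranges overlapped. After a gap followed Dgat1, Pnpla2, Mogat2, Plin2, Mogat1 and Cideb, from 4.64 to 4.02 on average, and each of these overlapped with the next. Cidea (3.22 ± 0.30) was 9th and Cidec (2.43 ± 0.28) 10th, each below the gene before it in every library. In Yap1KO, Cidea (5.47 ± 0.18) was 3rd, its range overlapping with that of Dgat2 (5.75 ± 0.22) and lying above that of Pnpla2 (4.73 ± 0.11). Mogat1 was 10th, at a mean of -0.02 and with single libraries from -3.14 to 1.97. Among all genes with deposited values, Cidea lay between percentiles 47.9 and 60.7 in the Yap1WT libraries and between 85.6 and 89.8 in Yap1KO. Mogat1 lay between percentiles 48.2 and 88.2 in Yap1WT and between 1.75 and 34.1 in Yap1KO.

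**Figure D4:**
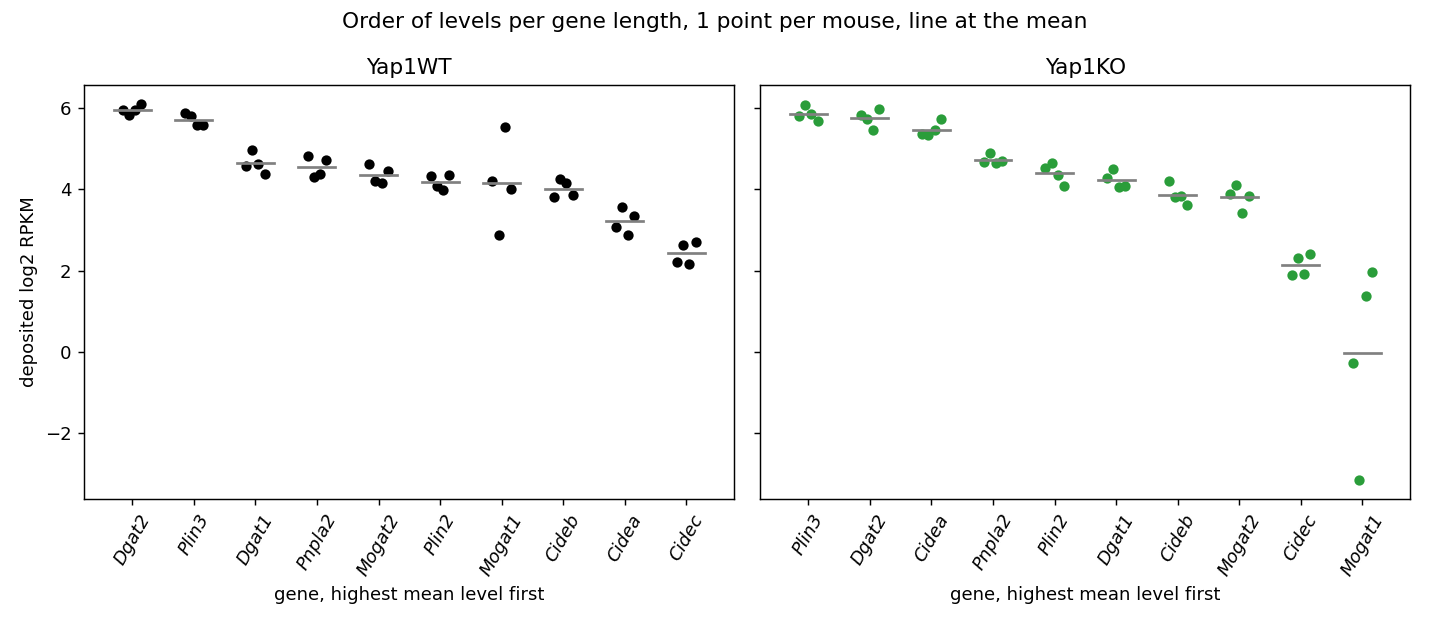
Deposited log2 RPKM (vertical axis) of the 10 genes in Yap1WT (left) and Yap1KO (right), ordered from the highest mean down, with 1 point per mouse and a line at the mean. Cidea moves from 9th to 3rd place and Mogat1 from 7th to 10th.

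Of 80 further genes of droplets and neutral lipid, 67 were tested, and 4 were called higher and 2 lower, where 3.53% and 2.34% of all genes were. Their median log2 fold change was -0.00, against -0.01 over all genes. At an unadjusted p under 0.05, 17 of the 67 were higher and 10 lower, where 11.5% and 8.97% of all genes were. In the list of droplet formation, 9 genes were tested, with 2 higher and 1 lower. Spg20, whose product spartin is recruited to droplets, was read at 30.2, 27.1, 24.4 and 28.3 CPM in Yap1WT and at 56.0, 52.2, 60.9 and 50.9 CPM in Yap1KO, without overlap (log2 fold change 1.001, adjusted p = 0.000639, edgeR). Bscl2, which encodes seipin, the protein that shapes nascent droplets, lay between 38.3 and 55.8 CPM in Yap1WT and rose to between 64.1 and 68.6 CPM (log2 fold change 0.54, adjusted p = 0.0259, edgeR). Vps13c, a lipid transfer protein found at droplets, lay between 102.0 and 156.7 CPM in Yap1WT and fell to between 44.6 and 68.2 CPM (log2 fold change -1.05, adjusted p = 0.00559, edgeR). Thus 2 called genes of the list rose and 1 fell.

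Among 9 tested genes of the droplet coat, Hsd17b11, a droplet-bound dehydrogenase, lay between 137.7 and 216.6 CPM in Yap1WT and fell to between 98.5 and 116.0 CPM (log2 fold change -0.72, adjusted p = 0.0134, edgeR), and none was called higher. Among 16 genes of triacylglycerol and sterol ester synthesis, Gpat3, which takes the first step from glycerol phosphate, lay between 9.63 and 12.04 CPM in Yap1WT and rose to between 17.9 and 22.4 CPM (log2 fold change 0.80, adjusted p = 0.0108, edgeR), and none was called lower. Gpat3 and Mogat1 feed separate routes to diacylglycerol, and their values moved in opposite directions. Gpat4 and Gpam, also glycerol phosphate acyltransferases, had log2 fold changes of -0.10 and -0.16 (adjusted p = 0.635 and 0.806, edgeR). The contrast thus covers single genes and not whole routes. Among 15 PPAR and thermogenic regulators, Srebf1, the regulator of fatty acid synthesis, lay between 176.5 and 226.4 CPM in Yap1WT and rose to between 233.3 and 391.3 CPM (log2 fold change 0.71, adjusted p = 0.0310, edgeR), and none was called lower.

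No gene was called in the other 3 lists. Of 10 lipolysis genes, 3 were higher and 2 lower at an unadjusted p under 0.05, beside the same 11.5% and 8.97%. Abhd5, the activator of the Pnpla2 lipase, had a log2 fold change of 0.25 (adjusted p = 0.148, edgeR), Lipa, the lysosomal lipase, one of 0.06 (adjusted p = 0.818), and Lipe, named above, one of 0.61 (adjusted p = 0.0502). Of 6 export genes, 3 were higher at an unadjusted p under 0.05, again beside 11.5%, and none lower. Surf4, a cargo receptor for lipoproteins, had a log2 fold change of 0.24 (adjusted p = 0.206, edgeR) and Apob one of -0.29 (adjusted p = 0.657). Both DNA fragmentation factor genes that share the CIDE-N domain, Dffa and Dffb, had values below 0, at -0.32 and -0.29 (adjusted p = 0.240 and 0.751, edgeR).

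**Figure D5:**
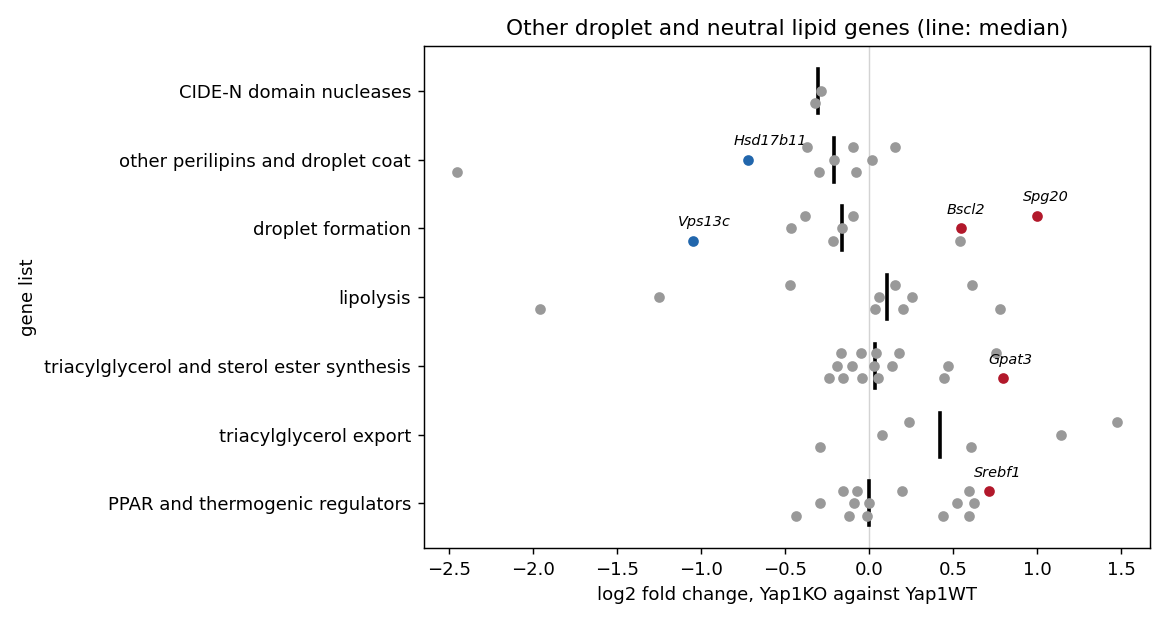
Log2 fold change of Yap1KO against Yap1WT (horizontal axis) of the 67 tested genes in 7 lists (rows), 1 point per gene, with a black line at the median of each list, red where called higher and blue where called lower. The 6 called genes are named, and the medians of the lists lie between -0.31 and 0.42.

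The genes most like each called member were found by Pearson's r of log2 CPM over the 8 libraries, as a description. For Cidea they were Phlda3 (r = 0.995), Acsbg1 (0.991) and Pea15a (0.991). For Mogat1 they were Aldh1a1 (0.980), Psca (0.977) and Gpd1l (0.9751). The 8 libraries share the group difference, which alone gives a high r to any gene that differs between the groups. Within the groups, deviations from the group mean correlated at 0.901, 0.901 and 0.815 for the genes named for Cidea, and at 0.936, 0.964 and 0.914 for those of Mogat1. These genes were picked by r over the same 8 libraries, so high values here follow in part from that choice.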

How the data were processed

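Bulk RNA of EpCAM-positive cells from antral gastric tumors was measured in 8 mice, grouped by the labels. According to the methods, the authors made the deposited counts from paired-end 80 bp TruSeq reads. These were aligned to GRCm38/mm10 with Subread and counted with featureCounts against RefSeq genes. The methods do not mention strand, and the lack of strand information is inferred here from the kit they name. The deposited log2 RPKM values were quantile normalized by the authors with voom in limma, and their scaling to gene length is not given in the sources used here. The count table held 27179 entries, of which 1277 without a symbol (0.552% to 0.789% of the counts) and 762 pseudogenes were left out, and 6 further columns, which fit the labels of no sample, stayed unused.

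Genes with more than 0.5 CPM in 6 or more libraries were tested on the counts by the quasi-likelihood method of edgeR 4.0.16 (R 4.3.3), with TMM factors and p-values adjusted after Benjamini and Hochberg. limma-voom, the study's own test, was an alternative (limma 3.58.1), as were DESeq2 1.42.0, other scalings and filters, blocks, and leaving out each library. The fit was tested on simulated data, with 50 genes changed at each fold. There edgeR recovered 32%, 82%, 94% and 98% of the genes changed 1.5-, 2-, 4- and 8-fold, with 9 false calls. Most changes of 1.5-fold were thus not called. The members and gene lists were chosen with earlier results of these data known. All members are named, as are up to 4 called genes per direction of each lipid list or, in lists with no call, their 2 most abundant; from each marker list, the 2 most abundant and the called ones, and the 3 genes most like each called member. Adipoq, Ucp1, Plin1, Cfd, Cox7a1, Mc5r, Awat1, Itgam, Fabp2, Tff1, Gkn2, Muc5ac, Gpat4 and Gpam were named outside this rule, after their values were seen. Each library is 1 mouse. Python 3.11.15 and matplotlib 3.10.9 drew the plots.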

Additional observations from a re-analysis of the deposited data

How the results depend on the processing

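Of 190 recomputed fold changes, 10 members under 19 alternatives, 184 kept direction and side of the threshold, 3 lost the call (Mogat1, given above), 3 gained one and none reversed. With DESeq2, 858 genes were called higher and 587 lower, with 2 members lower (Mogat1, Mogat2) and 8 and 4 of the other lipid genes. With limma-voom, 0 members and 4 lipid genes were lower, beside 385 of all 13495 genes. On the deposited log2 values 4 lipid genes were lower, beside 331 of all 13819 genes. With a term for the series the mouse numbers fall into, 7 lipid genes were higher and 4 lower. Under that term, 598 of all 13495 genes were higher and 451 lower.

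With the replicate block, 755 genes were called higher and 552 lower, 3 members were lower (Dgat1 at an adjusted p of 0.0411, Mogat2 at 0.0451, and Mogat1), and 5 lipid genes were lower (edgeR). Whether the replicate numbers pair the mice is not known. Deviations of same-numbered libraries correlated at 0.036, 0.347, 0.0517 and 0.148, and those of other pairs at -0.241 to 0.199. Only replicate 2 of Yap1WT correlated best with its own number. With 4 libraries per group, these values cannot decide whether the mice were paired.

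Leaving out each library gave 241 to 481 genes higher and 156 to 292 lower, 0 to 1 members lower, and 2 to 4 lipid genes higher. Genes higher and lower fell to 241 and 156 without Yap1WT replicate 3, 287 and 205 without Yap1KO replicate 1, and 270 and 195 without Yap1KO replicate 4, and higher genes to 317 without Yap1WT replicate 1. Without Yap1WT replicate 3, Yap1KO replicate 1 or Yap1KO replicate 4, 2 lipid genes were higher. Members higher without overlap of the groups rose from 1 to 2 (Plin2) without Yap1KO replicate 4, an alternative chosen after seeing the data. The cause was not tested. With 4 mice per group, and 12 to 263 reads of Mogat1 in the Yap1KO libraries, the size of its fall is less certain than that of the rise of Cidea.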
